A study of Sus scrofa with 24 samples.

Results

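The proteasome subunit genes were taken as every gene in the count tables whose pig symbol begins with PSMA, PSMB, PSMC, PSMD, PSME, PSMF or PSMG, leaving out PSMB8, PSMB9 and PSMB10 of the immunoproteasome. The name table held 46 such symbols, and 45 of them were among the 38882 genes listed. PSMC4, an ATPase subunit, was not matched and was not analysed here. Of the 45 genes, 41 passed the filter on low counts and were tested together with the other genes, 16326 in all. The 4 genes that were not tested were PSMA8 (3 reads over all libraries), PSMD10 (1 read), PSMB11 (0 reads) and PSMF1 (0 reads). One of the 41, PSMC3IP, shares only the prefix and encodes a partner of meiotic recombination enzymes, so it was kept by the rule but is not a subunit.

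The data are read counts from polyadenylated RNA of the whole hippocampus of 24 piglets of 1 commercial cross (PIC Camborough dam, PIC 359 sire) at postnatal day 14. There were 6 piglets in each of 4 groups, small (SGA) or appropriate (AGA) for gestational age, fed either a control formula with intact triglyceride oils (CON) or a hydrolyzed fat formula (HF) in which soy free fatty acids, a palmitate monoglyceride and soy lecithin took the place of the soy oil and of part of the other oils and cholesterol was added, so the diets differ in more than the splitting of fat. All piglets came from a university swine farm at 2 days of age and were then fed formula, so no group was sow-fed throughout. Every SGA piglet was matched with an AGA littermate (like sex, like formula). The 12 litters comprised 6 per diet, so that size can be compared within litters and diet between litters. The litters were studied in 2 cohorts (replicates 1 to 3 and 4 to 6), and 12 of the piglets were male. SGA status is assigned by weight at birth and is not a genetic or surgical model.

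The proteasome is the chamber in which cells break down proteins that have been tagged with ubiquitin. Its core is a stack of rings, with outer alpha rings that gate the channel and inner beta rings that hold the proteolytic sites. A regulatory particle caps the core: its base contains a ring of ATPases that unfold substrates, and its lid removes the ubiquitin chain. Neurons depend on the proteasome for the turnover of synaptic proteins, and because the complex has a fixed composition its subunit genes are commonly regulated as a set.

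Library totals ran from 6017336 to 9284355 counts on listed genes, and 3 counts, the limit that a count of 0 allows, corresponded to 0.323 to 0.499 on the counts-per-million (CPM) scale. The hippocampal label was checked against neuronal markers: SLC17A7 had group medians of 3083 to 3728 CPM and PROX1, a marker of dentate granule cells, 44.8 to 51.7 CPM. Some libraries stood apart. AGA CON 2 had the lowest summed level of neuronal markers (2799 CPM, against 3531 or more in the others) and the highest of astrocyte, microglial and endothelial markers. SGA HF 4 had a summed level of pituitary markers of 369 CPM against at most 37.0 CPM elsewhere, and AGA HF 2 had the highest ratio of reads on short genes (under 1500 exon bases) to reads on long genes (over 5000), 1.63 against a lowest value of 1.21. Results were therefore also computed without each litter. In bulk tissue, fewer cells of a type and less RNA per cell cannot be told apart.

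Levels per kilobase of exon differed widely between subunits that are present in equal number in the assembled complex. In the alpha ring, PSMA7 had the highest level (262 ± 23.9 CPM per kb, mean ± SD over 24 libraries) and PSMA5 the lowest (48.8 ± 4.88), a ratio of 5.37. In the beta ring the 3 subunits with proteolytic sites stood at 280.8 ± 33.2 CPM per kb for PSMB7 (trypsin-like), 216.8 ± 19.3 for PSMB6 (caspase-like) and 82.0 for PSMB5 (chymotrypsin-like). PSMB2 was the lowest of that ring at 16.5 ± 4.05 CPM per kb. Its model in the annotation holds only 387 exon bases on an unplaced scaffold, and whether the model is complete was not tested.

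The regulatory particle showed the same breadth. Among the ATPases, PSMC1 was highest (138.8 ± 12.4 CPM per kb) and PSMC2 lowest (6.91 ± 1.04), a ratio of 20.1. Of the remaining base subunits, the ubiquitin receptor PSMD4 reached 146.7 CPM per kb, the scaffold PSMD2 100.2 and the scaffold PSMD1 30.4. In the lid, PSMD8 was highest (138.2 CPM per kb) and PSMD12 lowest (10.9), while PSMD14, the deubiquitinase that cuts the chain from the substrate, stood at 24.7. Levels between genes also depend on how completely each gene was annotated, so these ratios describe counts per annotated base. Whether RNA quality affected long and short transcripts differently was not tested.

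Assembly chaperones and activators were mostly lower. The chaperones of core assembly stood at 48.4 CPM per kb for PSMG4, 37.4 for PSMG3 and 21.7 for PSMG1, and PSMD5, a chaperone of the base, at 2.99. Among the activators, PSME1 (60.8 CPM per kb) and PSME2 (42.4), the partners of the interferon-inducible cap, were close to PSME3 (51.4), the nuclear cap, and PSME4, the single-chain activator, was lowest at 2.64. The genes with at most 3 reads over all libraries were PSMA8, the alpha subunit of the testis, PSMB11, the beta subunit of the thymus, PSMF1, an inhibitor, and PSMD10, a chaperone of the base. PSMA8 and PSMD10 were thus not detectable above the counting floor at this depth, and whether their gene models are complete was not tested. Of the immunoproteasome genes set aside by the rule, PSMB8 and PSMB9 had 0 reads in all libraries, and PSMB10 had group means of 25.5 ± 6.27 CPM in AGA CON, 24.8 ± 2.73 in AGA HF, 31.9 ± 15.3 in SGA CON and 23.5 ± 4.34 in SGA HF (SD, n = 6). The highest PSMB10 value, 56.6 CPM, was in SGA CON 6. For PSMB8, PSMB9, PSMB11 and PSMF1, and for UCHL5, a deubiquitinase of the regulatory particle that is also listed at 0 in every library, whether reads can be counted on the Sscrofa10.2 gene model was not tested, so a listed 0 is not read as absence.

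**Figure D1:**
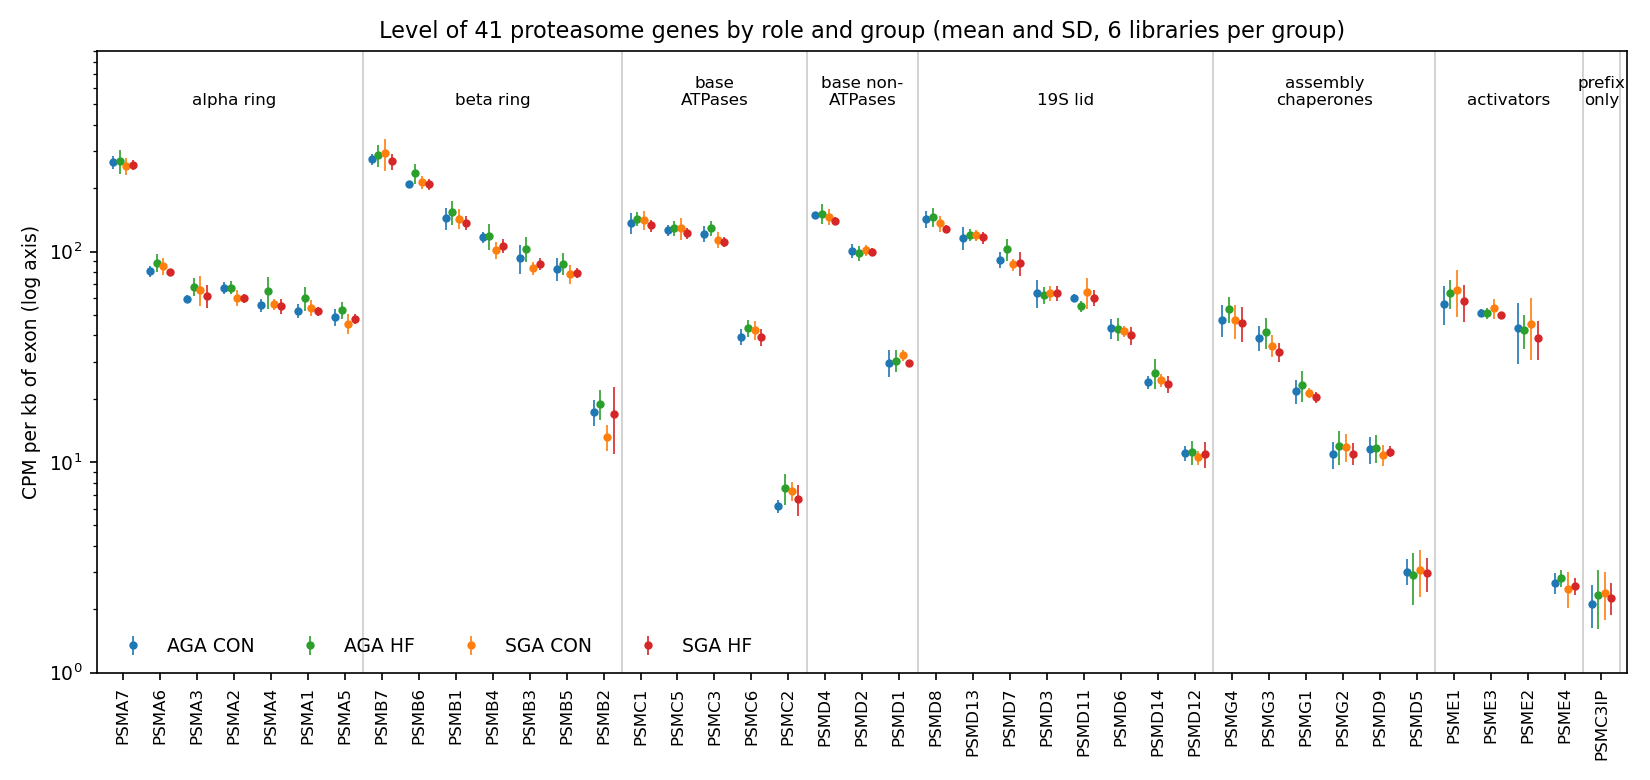
Mean level of each of the 41 tested genes in CPM per kilobase of exon (log axis) by role and group, with bars of 1 SD over 6 piglets. The 4 groups lie close together for each gene, while genes of 1 role are spread far more widely, as in the activators from PSME4 (2.64) to PSME1 (60.8).

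The main effect of size asked which genes differed between SGA and AGA piglets over both diets, in a fit without a litter term. One proteasome gene was down-regulated in SGA piglets, PSMC3, an ATPase of the base that lies on chromosome 2 (Sscrofa10.2, 16392149 to 16397835, plus strand). PSMC3 ranged from 167.4 to 217.4 CPM (median 192.1) in AGA CON and from 181.7 to 230.5 CPM (median 201.4) in AGA HF. In SGA piglets it ranged from 162.2 to 200.9 CPM (median 182.4) on CON and from 158.5 to 182.8 CPM (median 179.1) on HF. SGA medians were thus the lower ones on both diets, and the ranges overlapped on both. PSMC3 fell by 0.19 on the log2 scale (SE 0.041, edgeR quasi-likelihood test, Benjamini-Hochberg adjusted p = 0.240), past the threshold of an adjusted p below 0.4 over 7 contrasts. The study states this threshold for the genes of its heat map and describes it as larger than usual. It tested with limma voom, so its calls need not be those given here. PSMC3 was lower in the SGA littermate in 9 of 12 litters, in 6 of 6 on HF and in 3 of 6 on CON.

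That 1 of 41 genes (2.44%) was called compares with 0.478% of all genes tested (78 genes), or 0.165% in the lower direction. At an unadjusted p below 0.05 there were 8 proteasome genes, all lower in SGA piglets, which is 19.5% of the 41 beside 10.6% of all genes in either direction and 4.95% of all genes in the lower direction. The median log2 fold change was -0.03 over the 41 genes and -0.00 over all genes, and 31 of the 41 estimates were below 0. The 8 genes came from 5 roles: 2 each in the alpha ring, the beta ring and the chaperones, 1 ATPase and 1 lid subunit. The standard errors of these genes were small, with a median of 0.0481 against 0.105 for all genes tested, so a small difference reached a given p more readily in them than in most genes. Role medians were -0.05 in the alpha ring, -0.11 in the beta ring, -0.02 in the ATPases, -0.03 in the lid and -0.09 in the chaperones. The other base subunits and the activators had medians of 0.01 each.

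The other 7 genes did not pass the threshold, and the 3 with the next smallest p had lower SGA than AGA medians on both diets. PSMD8, a lid subunit on chromosome 6 (42790431 to 42797494), had medians of 214.2 CPM in AGA CON (177.5 to 235.6), 211.9 in AGA HF (191.6 to 244.4), 201.0 in SGA CON (177.1 to 227.7) and 188.7 in SGA HF (176.4 to 200.2). The ranges overlapped in both diets, and the SGA HF piglets were the most tightly grouped. Its log2 fold change was -0.14 (SE 0.037, adjusted p = 0.421).

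PSMB4, a structural subunit of the beta ring on chromosome 4 (107036322 to 107038687), had medians of 111.8 CPM in AGA CON (100.2 to 116.9), 107.1 in AGA HF (97.8 to 141.2), 95.9 in SGA CON (86.3 to 106.8) and 102.0 in SGA HF (89.6 to 109.1). The AGA and SGA ranges overlapped on both diets, and the wider gap between medians was on CON. The log2 fold change was -0.18 (SE 0.055, adjusted p = 0.505), and the SGA littermate was the higher one in 2 of 12 litters.

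PSMG3, a chaperone of core assembly on chromosome 3 (1167043 to 1170305), had medians of 35.9 CPM in AGA CON (34.2 to 48.2), 39.9 in AGA HF (31.8 to 48.8), 34.6 in SGA CON (30.4 to 40.0) and 33.0 in SGA HF (27.2 to 37.1). The ranges overlapped, yet the SGA littermate was higher in only 1 of 12 litters. Its log2 fold change was -0.23 (SE 0.075, adjusted p = 0.533). The remaining 4 genes were PSMG4, another core chaperone (log2 fold change -0.26, adjusted p = 0.595), the alpha-ring subunits PSMA2 (-0.14, adjusted p = 0.564) and PSMA5 (-0.11, adjusted p = 0.734), and the catalytic PSMB5 (-0.11, adjusted p = 0.646).

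The lowest estimate of all belonged to PSMB2 at -0.28 (SE 0.16, adjusted p = 0.798), which had 3.74 to 9.41 CPM, and the highest to PSMC3IP at 0.21 (SE 0.16, adjusted p = 0.856), which had 2.02 to 5.01 CPM. Both had few reads and wide errors. The other catalytic subunits had estimates of -0.06 (PSMB6) and 0.00 (PSMB7), the ubiquitin receptor PSMD4 of -0.03 and the deubiquitinase PSMD14 of -0.02. PSME1 and PSME2, whose products form 1 cap, had 0.04 and 0.03, with PSME3 at -0.01 and PSME4 at -0.00.

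**Figure D2:**
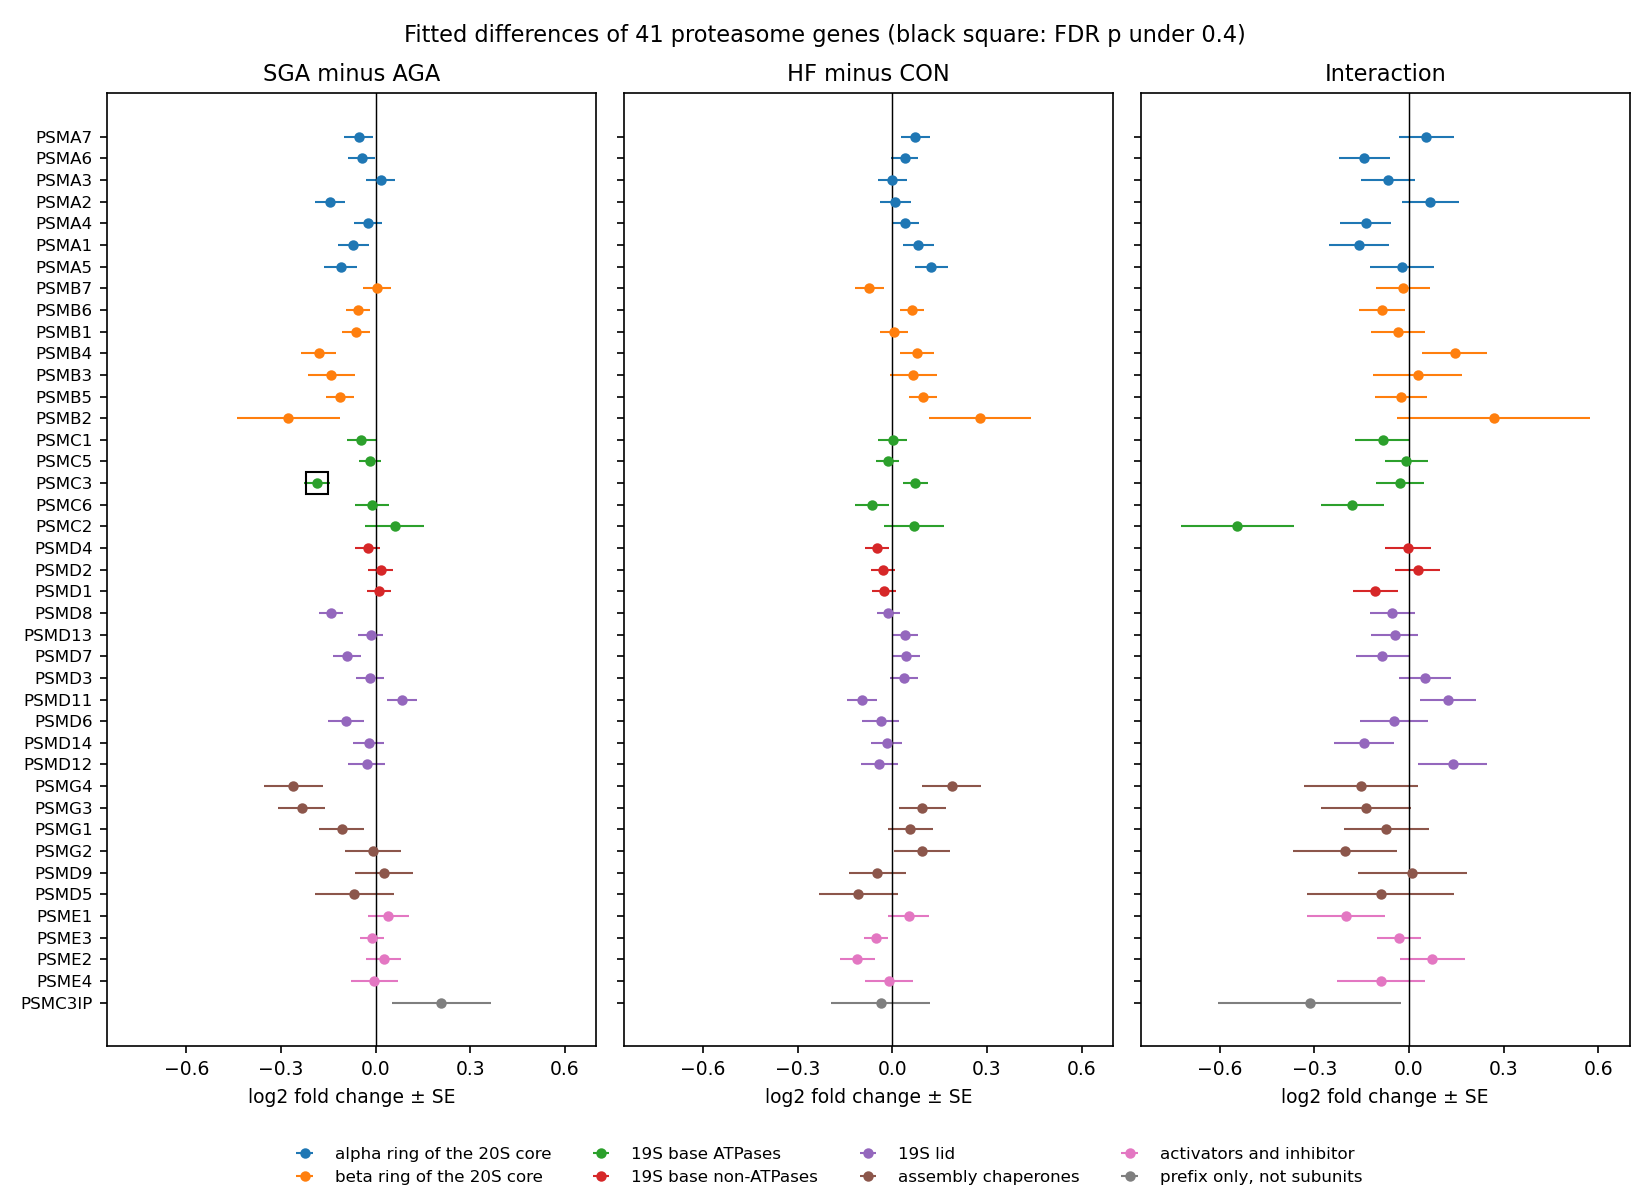
Log2 fold change with standard error of each of the 41 genes for the main effect of size (SGA minus AGA), the main effect of diet (HF minus CON) and the size by diet interaction, by role, with called genes as black squares. PSMC3 in the size panel is the only called gene, and 31 of 41 size estimates lie below 0.

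Because the littermates share a litter, diet and sex, size was also tested within litters. With litter as a block, PSMG3 (-0.22, adjusted p = 0.290) and PSMB4 (-0.18, adjusted p = 0.398) passed and PSMC3 did not (-0.15, adjusted p = 0.407), 2 of 41 genes beside 2.57% of all genes, or 1.52% in the lower direction. An exact sign-flip test over the 12 litters, two-sided and adjusted over all genes of this contrast alone, called 10 of the 41 genes beside 12.7% of all genes. Of the 10, 9 were lower in SGA piglets (PSMG3, PSMC3, PSMB4, PSMD8, PSMA2, PSMA5, PSMD7, PSMB3 and PSMB2) and PSMD11, a lid subunit, was higher. The share of all genes called lower was not taken for this test. The 9 are therefore not read as particular to the proteasome genes. PSMG3 had p = 0.00147 (adjusted p = 0.133) and PSMC3 an adjusted p = 0.211 in this exact test, whose smallest possible p is 0.000488.

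The call of PSMC3 depended on which litters were kept. Without HF litter 5 (adjusted p = 0.551) or without CON litter 5 (adjusted p = 0.426) PSMC3 was no longer past the threshold, with log2 fold changes of -0.18 and -0.17. Without HF litter 3, 7 of 41 genes were called beside 7.75% of all genes, and without CON litter 6, 4 were called beside 2.55%. Without CON litter 2, which holds the library low in neuronal markers, 3 were called beside 2% of all genes, and PSMC3 was among them. Without HF litter 4, which holds the library with pituitary markers, PSMC3 was the 1 gene called, beside 0.436%. Without HF litter 2, PSMC3 and PSMA2 were called beside 1.36% of all genes. Each cohort was also fitted alone, with sex and without surrogate variables. The median over the 41 genes was -0.08 in cohort 1 (33 below 0) and -0.04 in cohort 2 (27 below 0). With both cohorts, sex and cohort in the model and no surrogate variables, it was -0.07. PSMC3 stood at -0.19 in cohort 1 and -0.13 in cohort 2. No genes were called in either cohort, where 0 of all genes were called.

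**Figure D3:**
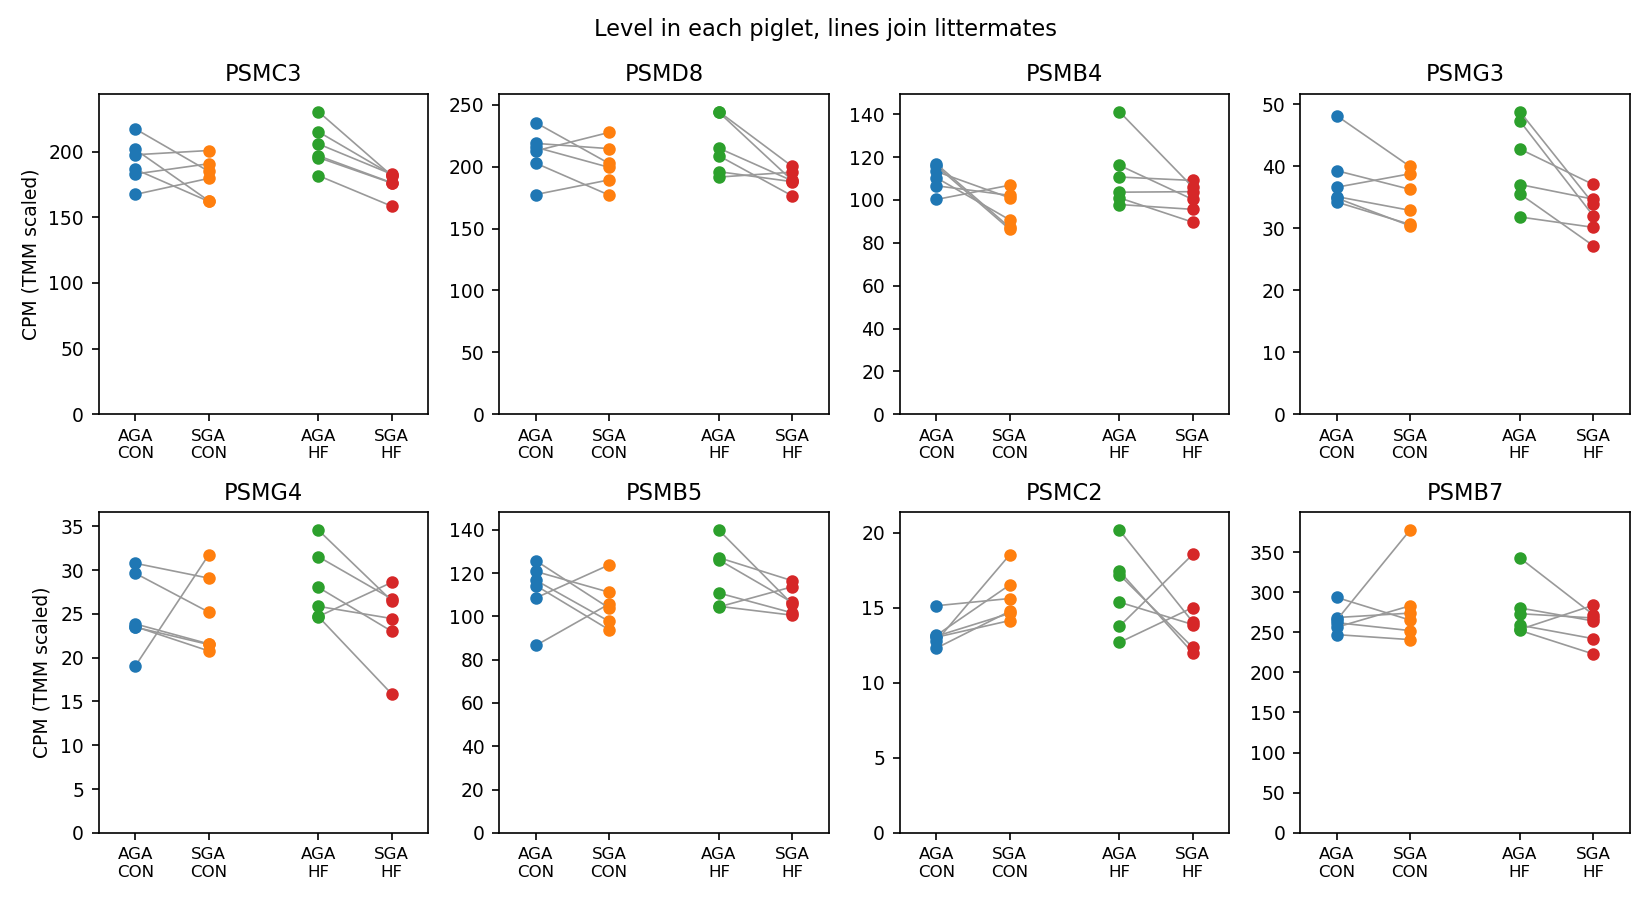
TMM-scaled CPM of 8 proteasome genes in each of the 24 piglets, with littermates joined by a line and the CON and HF litters side by side. For PSMC3 and PSMG3 every HF line runs down from AGA to SGA, and for PSMC2 every CON line runs up.

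The pairwise comparisons gave the size difference on each diet. Between SGA CON and AGA CON piglets 0 of 41 genes were called (0.129% of all genes), and the median was -0.01 with 23 estimates below 0. At an unadjusted p below 0.05 there were 5 of the 41 genes (12.2%, beside 6.59% of all genes): PSMB4 (-0.25, adjusted p = 0.485), PSMC3 (-0.17, adjusted p = 0.537), PSMA2 (-0.18, adjusted p = 0.610) and PSMD8 (-0.11, adjusted p = 0.700) with lower values in SGA piglets, and PSMC2 (0.33, adjusted p = 0.644) with higher. The 4 lower genes are 9.76% of the 41, beside 3.47% of all genes in that direction.

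Between SGA HF and AGA HF piglets 0 of 41 genes were called as well (0.288% of all genes), with a median of -0.09 and 34 estimates below 0. Here 7 genes had an unadjusted p below 0.05 (17.1%, beside 8.02%), among them PSMC3 (-0.20, adjusted p = 0.449), PSMD8 (-0.17, adjusted p = 0.508), PSMG3 (-0.30, adjusted p = 0.581) and PSMG4 (-0.34, adjusted p = 0.644). PSMD11 was the 1 gene of the 7 with a higher value in SGA piglets (0.15, adjusted p = 0.696), and the 6 lower genes are 14.6% of the 41 beside 3.25% of all genes. With litter as a block, PSMG3 passed in this comparison (-0.31, adjusted p = 0.287), beside 0.888% of all genes.

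Litter by litter, the median SGA minus AGA difference over the 41 genes was below 0 in 6 of 6 HF litters, at -0.18, -0.21, -0.00, -0.08, -0.20 and -0.03 log2 units in litters 1 to 6. In the CON litters it was -0.11, 0.10, -0.08, 0.09, -0.13 and 0.05. The 3 CON litters above 0 were the female litters and the 3 below 0 the male ones, whereas both sexes were below 0 on HF. In the same 3 CON litters the ratio of reads on short to reads on long genes was also higher in the SGA piglet. These are descriptions of 12 litters, and the difference between sexes was not tested. In HF litters, 20 genes were higher in the SGA piglet in at most 1 of 6 litters, and in CON litters 8 genes were. The same counts were not taken over all genes, so they are not read as particular to the proteasome genes.

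**Figure D4:**
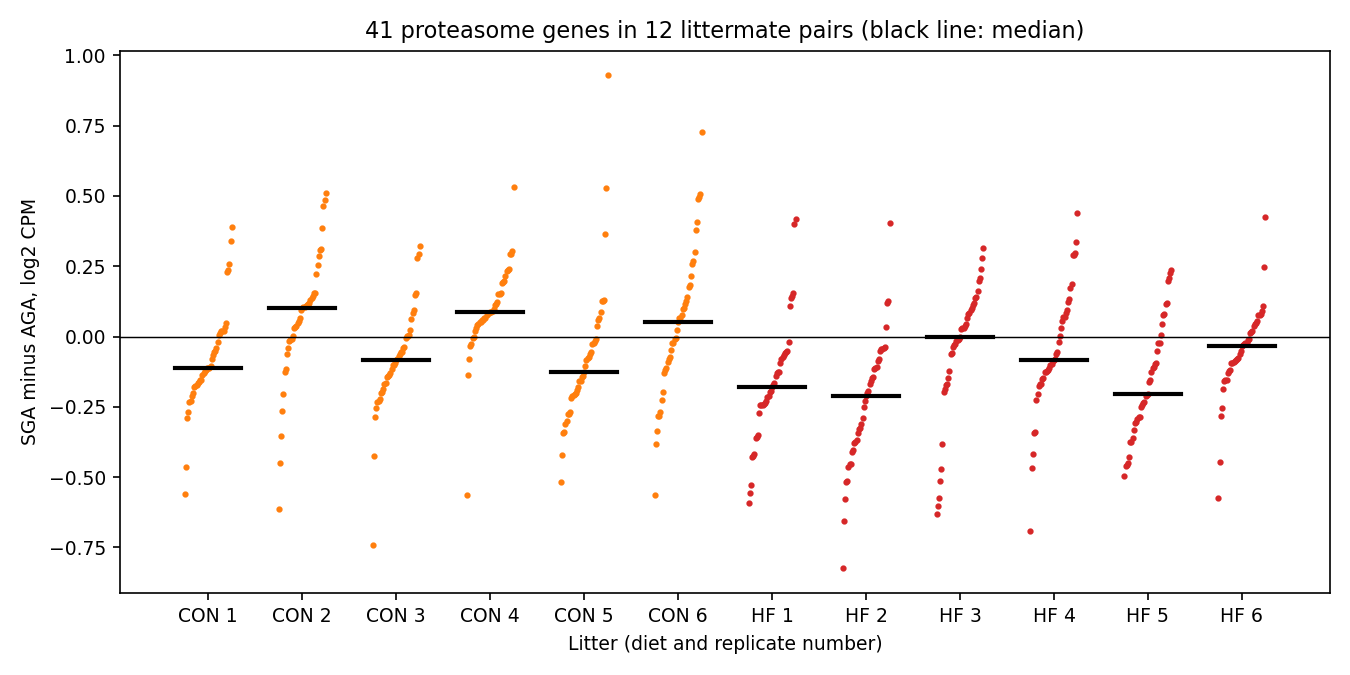
SGA minus AGA difference in log2 CPM of each of the 41 genes in each of the 12 litters, with the median marked. The 6 HF medians lie below 0 and the CON medians lie on both sides of 0, from -0.13 to 0.10.

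Other library measures moved with the HF pattern. The summed level of the 41 genes was higher in the SGA piglet in 1 of 6 HF litters (mean difference -298.9 CPM) and in 3 of 6 CON litters (17.3 CPM). The ratio of reads on short to reads on long genes was also higher in the SGA piglet in 1 of 6 HF litters (mean difference -0.11) and in 3 of 6 CON litters. These were the same litters as for the summed level, HF litter 3 and CON litters 2, 4 and 6. The summed level of 75 ribosomal protein genes was higher in 1 of 6 litters on each diet, with mean differences of -3071 CPM on HF and -1172 CPM on CON. The highest summed levels of the 41 genes were 4726 CPM in AGA HF 5 and 4665 CPM in AGA HF 2, whose short to long ratios were 1.43 and 1.63. The 6 oligodendrocyte markers had a summed level of 20760 CPM in AGA CON, 20500 in AGA HF, 15780 in SGA CON and 17510 in SGA HF (group means), and 0 of 6 were called for size. The part of these measures in the proteasome differences was not tested.

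The size by diet interaction asked whether the size difference was the same on both formulas. No proteasome gene was called (0 of 41, 0.049% of all genes), and 1 gene had an unadjusted p below 0.05 (2.44%, beside 4.01% of all genes). That gene was PSMC2, an ATPase of the base on chromosome 9 (113971194 to 113984560). PSMC2 had medians of 13.1 CPM in AGA CON (12.3 to 15.1), 16.3 in AGA HF (12.7 to 20.2), 15.2 in SGA CON (14.1 to 18.5) and 14.0 in SGA HF (12.0 to 18.5). The SGA piglet was higher in 6 of 6 CON litters and in 2 of 6 HF litters, with overlapping ranges on both diets. Its interaction term was -0.54 (SE 0.18, adjusted p = 0.555). In fits of each cohort alone, with sex and without surrogate variables, it was -0.67 in cohort 1 and -0.16 in cohort 2. Without HF litter 6 it passed the threshold (-0.70, adjusted p = 0.380). The next genes by p were the ATPase PSMC6 (-0.18, adjusted p = 0.783) and the alpha-ring subunits PSMA6 (-0.14, adjusted p = 0.790) and PSMA4 (-0.14, adjusted p = 0.798). With litter as a block, 0 of 41 genes were called (0.276% of all genes), and 5 had an unadjusted p below 0.05 (12.2%, beside 3.73% of all genes), all with a negative term: PSME1 (-0.33, adjusted p = 0.474), PSMC6 (-0.25, adjusted p = 0.552), PSMA1 (-0.25, adjusted p = 0.585), PSMC2 (-0.41, adjusted p = 0.594) and PSMA4 (-0.24, adjusted p = 0.603). The median interaction term over the 41 genes was -0.05 with 30 below 0, beside 0.00 over all genes, and it was -0.13 with 32 below 0 when sex and cohort replaced the surrogate variables. PSMA4 shares 89 exon bases with HYKK on the same strand, which leaves the assignment of those reads uncertain.

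The main effect of diet asked which genes differed between piglets fed HF and CON formula. No proteasome gene was called (0 of 41, 0.159% of all genes), and the median was 0.01 with 24 estimates above 0. At an unadjusted p below 0.05 there were 2 genes (4.88%, beside 7.09% of all genes), PSMA5 (0.12, SE 0.053, adjusted p = 0.682) and PSMB5 (0.10, SE 0.044, adjusted p = 0.714). PSMA5 had medians of 42.9 CPM in AGA CON (35.7 to 46.5), 45.9 in AGA HF (40.98 to 51.2), 38.9 in SGA CON (33.9 to 47.6) and 41.9 in SGA HF (38.6 to 44.3). PSMB5 had medians of 115.5 CPM in AGA CON (86.6 to 125.8), 118.5 in AGA HF (104.4 to 139.9), 104.8 in SGA CON (93.9 to 123.8) and 106.1 in SGA HF (100.6 to 116.5). In both genes the HF median was the higher one at each size, and all ranges overlapped. PSMD11 (-0.10, adjusted p = 0.739) and PSMG4 (0.19, adjusted p = 0.747) followed by p.

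Diet was given to whole litters, so the counts of littermates were also summed and the 12 litters compared with sex and cohort in the model. In that fit 0 of 41 genes were called (0.00613% of all genes), and 0 had an unadjusted p below 0.05 (3.98% of all genes). The exact permutation test over 6 against 6 litter means also called 0 genes. Between AGA HF and AGA CON piglets 0 of 41 genes were called (0.0674% of all genes). The median there was 0.04 with 29 estimates above 0, and the smallest p-values belonged to PSMC2 (0.34, adjusted p = 0.644) and PSMD11 (-0.16, adjusted p = 0.663). Between SGA HF and SGA CON piglets 0 of 41 were called (0.0919% of all genes). The median there was -0.02, and PSMC6 (-0.15, adjusted p = 0.733) and PSMB4 (0.15, adjusted p = 0.745) came first. The pairwise comparisons share their groups, so their values are set side by side and not compared.

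Cohort and sex were compared in the fit of litter sums. There, 3 of 41 genes were called between cohort 2 and cohort 1 (7.32%, beside 8.97% of all genes, adjusted over this contrast alone), so the share of proteasome genes was no higher than that of all genes. PSME2, of the activating cap, fell by 0.47 on the log2 scale (SE 0.11, adjusted p = 0.106) and its partner PSME1 by 0.39 (SE 0.097, adjusted p = 0.112) from cohort 1 to cohort 2, while PSMD11 rose by 0.14 (adjusted p = 0.399). Between sexes 0 of 41 were called (0.19% of all genes). The male minus female difference was -0.32 for PSME2 and -0.22 for PSME1, each with an unadjusted p below 0.05 and an adjusted p = 0.999. The cohorts hold the same number of litters of each diet, but cohort 1 holds more male and cohort 2 more female litters. Sex was in the model of this fit. What else differed between the cohorts is not known from the labels.

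Across the 24 libraries the subunit genes varied little and varied together. The SD of log2 CPM within groups had a median of 0.152 over the 41 genes against 0.273 over all genes tested, from 0.0941 for PSMD2 to 0.356 for PSME2. After removal of group means, the 820 pairs of proteasome genes had a median Pearson correlation of 0.258, with 70.7% of pairs above 0, and their correlation with other genes had a median of -0.00859. With sex and cohort also removed the median was 0.266. All values of 1 library share its depth, RNA quality and cell composition, and the correlations are given as a description. The genes were not matched to others by level.

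Within the complex, correlations followed the rings and particles only in part, since some medians between them were as high as those within them. The median was 0.511 among lid genes, 0.498 within the alpha ring, 0.447 within the beta ring and 0.459 between both rings. It was 0.583 between lid genes and the non-ATPase subunits of the base, and -0.00865 among the ATPases themselves. Between core and regulatory particle, the non-ATPase base subunits had medians of 0.471 with the alpha ring and 0.453 with the beta ring. The lid had 0.394 and 0.333, and the ATPases 0.277 and 0.169. The tightest pairs were PSMA5 with PSMB5 (0.852), PSME1 with PSME2 (0.844) and PSMD8 with PSMB1 (0.833). PSME1 and PSME2 are neighbours on chromosome 7 (80433126 to 80435826 and 80425857 to 80429167), and their median correlations with the rest of the genes were -0.0318 and -0.0693. The lowest medians belonged to PSMD5 (-0.316), PSMC3IP (-0.251), PSMC2 (-0.192) and PSME4 (-0.150), 4 genes at the low end of the level range.

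**Figure D5:**
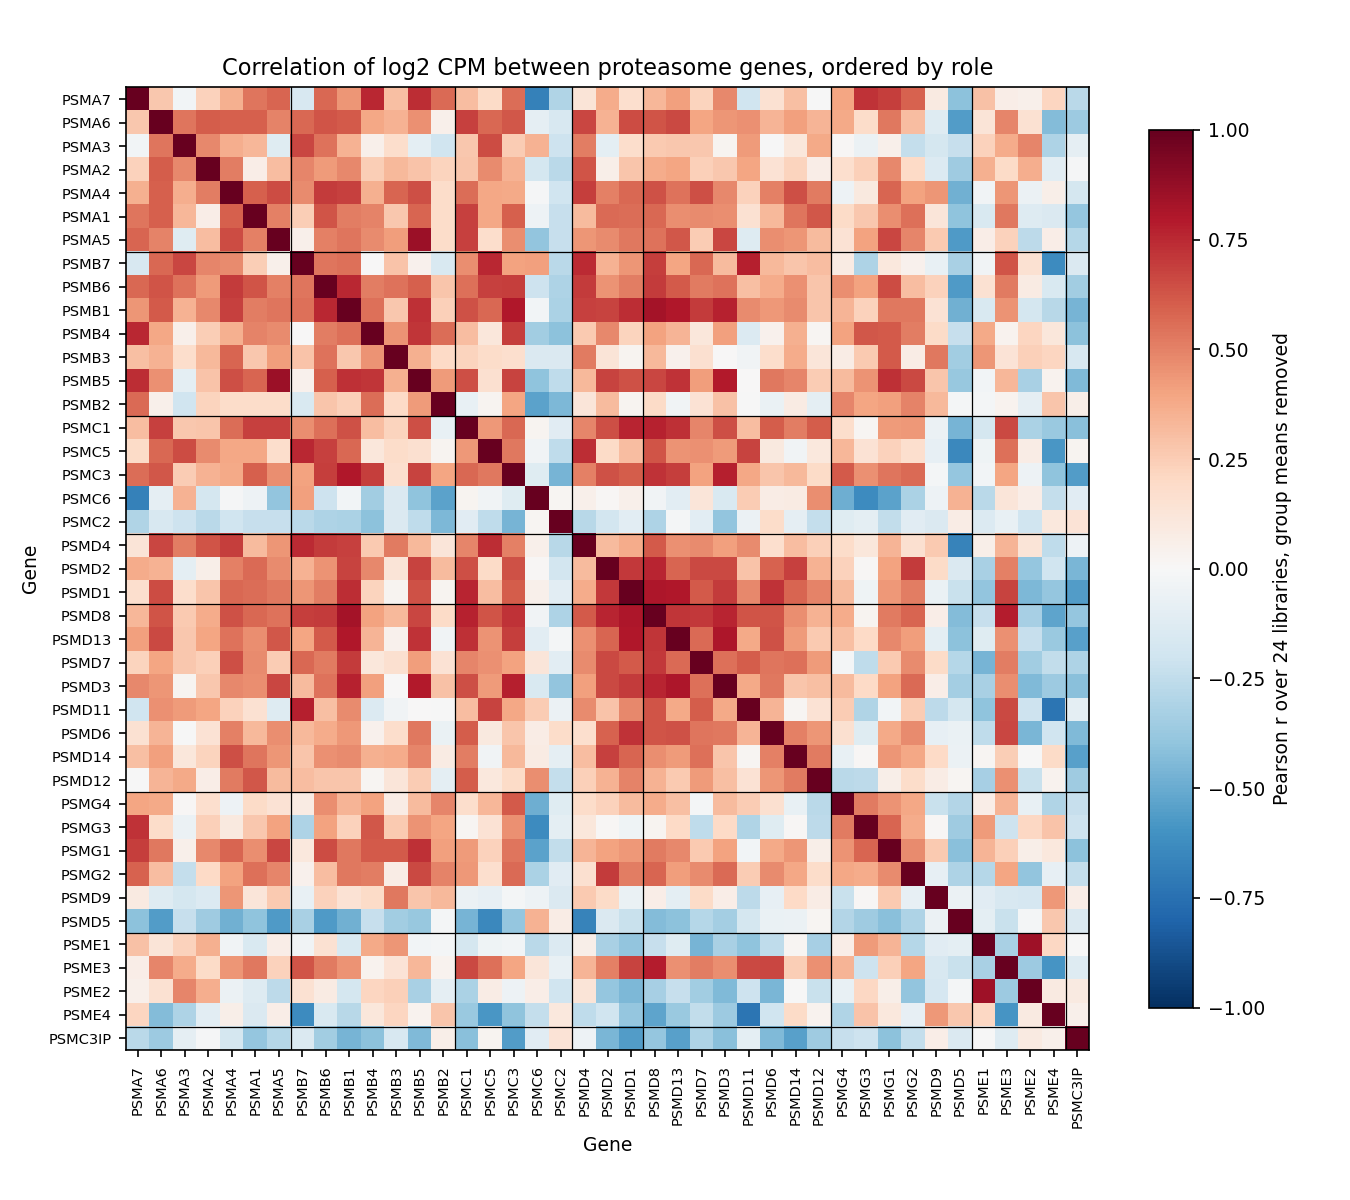
Pearson correlation of log2 CPM between the 41 genes over 24 libraries after removal of group means, ordered by role. Blocks of positive values join the rings, the lid and the non-ATPase base subunits, and PSMD5, PSMC2, PSMC3IP and PSME4 stand out with mostly negative values.

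Genes that act beside the proteasome were read from fixed lists. Other proteasome parts (10 tested of 13 listed), the transcription pathway that restores proteasome levels (5 of 7), ubiquitin supply and delivery (13 of 14) and the immunoproteasome (1 of 3) had 0 genes called in any of the 7 contrasts. NFE2L1, the transcription factor that induces subunit genes when degradation is impaired, had a size estimate of 0.24 (adjusted p = 0.683), and POMP, the maturation factor of the core, -0.12 (adjusted p = 0.837). ADRM1, a ubiquitin receptor of the base, was not matched and was not analysed here. In the ubiquitin list 3 of 13 genes had an unadjusted p below 0.05 for size, 2 lower and 1 higher in SGA piglets, beside 10.6% of all genes. The 2 lower ones were the ubiquitin genes UBB (-0.14, adjusted p = 0.555) and RPS27A (-0.16, adjusted p = 0.585).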

How the data were processed

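RNA of 24 piglet hippocampi was sequenced. The authors trimmed reads with Trimmomatic 0.33, aligned them to Sscrofa10.2 with STAR 2.5.2a and counted them by exon, gene and strand with featureCounts (Subread 1.5.0). The deposited values are these raw counts per Entrez gene, with no filter or normalization. An entry without an identifier (0.613% to 1.62% of counts) was left out. Gene symbols came from a table of Sscrofa11.1, which matched 23036 genes. PSMC4 had no match.

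The quasi-likelihood test of edgeR 4.0.16 (R 4.3.3) was run on the genes that reached 1 CPM in 3 or more libraries, after TMM scaling, with group, sex and 5 surrogate variables (sva 3.50.0, prior count 2) following the study's model. Benjamini-Hochberg FDR was taken over 7 contrasts together and calls were made at FDR p below 0.4. CPM are TMM-scaled. Multi-mapped reads are not counted in the default setting of featureCounts. In simulated data 75% of changes of 0.5 log2 were recovered in a size comparison of this model on 16326 genes. The size estimates of the tested proteasome genes were smaller, from -0.28 to 0.21 log2. The 75% therefore does not describe how often changes as small as these would be recovered.

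Littermate numbers come from the labels. The deviations of littermates from group means correlated in 12 of 12 litters, with a mean of 0.154 (0.0144 to 0.329), against 0.0314 between piglets of different litters (diet and cohort alike). Reads were not tagged by molecule, so counting floors cover counting error only.

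The genes named were those called, those with the smallest p in each contrast (4 for main effects and interaction, 2 for pairwise contrasts), the highest and lowest per kilobase in each role, and a fixed set of catalytic and regulatory genes. PSMA1, PSMA2, PSMA3, PSMB1, PSMB3, PSMD2, PSMD7 and UCHL5 were named after their values were seen. The members and lists were chosen with earlier results of these data known. Alternatives were DESeq2 1.42.0, limma 3.58.1 voom, other covariates, scalings and filters, a litter block, single cohorts and leaving out each litter. A single-gene result of the ubiquitin list is not reported here.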

Additional observations from a re-analysis of the deposited data

Results flagged for a closer look

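In 12 of 112 groups of 6 piglets, 1 library lay far from the other 5 relative to the range of its group. For independent, normally distributed values about 1 group in 20 would do so. The 112 groups share the same libraries and some genes were chosen by their p, so this count cannot be read as an excess. Some were low: PSMD1 at 68.7 CPM in AGA CON 2 (others 93.5 to 108) and PSMC3 at 158 CPM in SGA HF 3 (others 176 to 183). The others were high. In AGA CON these were PSMA7 at 236 CPM and PSMG3 at 48.2 CPM in replicate 1, PSME2 at 60.5 CPM in replicate 2 (others 29.2 to 36.9) and PSMC2 at 15.1 CPM in replicate 4. In AGA HF they were PSMB7 at 343 CPM in replicate 5 and PSMC3IP at 5.01 CPM in replicate 4. In SGA CON they were PSMB7 at 377 CPM (others 241 to 283) and PSMD11 at 239 CPM (others 158 to 174) in replicate 6, and PSMA4 at 79.7 CPM in replicate 4. In SGA HF, PSMD5 was at 7.09 CPM in replicate 1 (others 4.57 to 5.01). AGA CON 2 was the library lowest in neuronal markers, and SGA CON 6 the highest (7146 CPM). Their part in these values was not tested.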

How the results depend on the processing

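For size, the count of proteasome genes called moved from 1 to 2 with the replicate block (litter; PSMB4 and PSMG3), 2 with DESeq2 (PSMC3 and PSMD8), 7 with FDR over this contrast alone, 10 in the exact test over litters, and 0 with sex only, with sex and cohort, with 3 surrogate variables, and in cohort 1 or cohort 2 alone. The genes called over the whole table went from 78 to 420 with the block, 210 with DESeq2, 1200 with FDR over this contrast alone, 13 with sex only, 106 with sex and cohort and 300 with 3 surrogate variables. On HF the block called 1 gene (PSMG3), DESeq2 1 (PSMC3) and FDR over this contrast alone 2. Over all 16326 genes they called 145, 135 and 235. On CON, DESeq2 and 3 surrogate variables called 1 each (PSMB4), beside 57 and 102 of all genes. In the main fit the whole-table calls were 47 on HF and 21 on CON. The block changed no other count of calls among the 41 genes. The median for AGA HF minus AGA CON was 0.13 in cohort 1 alone. All fits of a single cohort had sex and no surrogate variables, so they differ from the main fit in the model as well. Leaving out 1 litter gave 0 to 7 called genes for size, 0 to 2 for diet, 0 to 1 for the interaction, 0 to 4 for size on CON, 0 to 6 for size on HF, 0 to 4 for AGA HF minus AGA CON and 0 to 2 for SGA HF minus SGA CON, with the highest counts without HF litter 3. Without HF litter 3 the calls over the whole table (16240 genes tested) were 1259 for size, 757 for diet and 333 for the interaction. They were 462 for size on CON and 1108 for size on HF. For AGA HF minus AGA CON they were 739, and for SGA HF minus SGA CON 390. With all litters the whole-table calls were 78, 26, 8, 21, 47, 11 and 15 in the same order. The cause was not tested. The size estimate of PSMC3 did not change sign in any alternative, but values near 0 did. The diet median was -0.00 in cohort 2 against 0.01. The median for SGA CON minus AGA CON was 0.01 with sex and cohort and 0.00 in cohort 2 against -0.01. With the block the size estimates of PSMB7 (-0.01), PSMA3 (-0.01) and PSME2 (-0.03) were below 0. Other estimates moved above 0 with the block, among them that of PSME3 (0.02). PSMC3 stayed between -0.13 and -0.19 for size in every alternative run on it other than leaving out a litter, with adjusted p = 0.256 by limma voom.

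Depth was at most 9284355 counts a library with 6 piglets per group, and PSMB2, PSMD5, PSME4 and PSMC3IP had low counts and wide errors. PSMC4, PSMF1 and PSMD10 gave no usable value, so the set is not the whole complex. An FDR threshold of 0.4 allows a large share of false calls. Diet was compared between litters, and no litter block can be fitted for it.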
